A study of Mus musculus with 4 samples.

Results

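Basement membrane genes of endothelial cells were followed by single-cell RNA-seq in the ventricles of mouse embryos at E14.5. The 10 genes, of 32285 in the matrices, were taken by symbol: *Hmcn1*, *Col18a1*, *Col4a1*, *Col4a2*, *Lama4*, *Lama5*, *Lamb1*, *Lamc1*, *Nid1* and *Hspg2*. All 10 symbols matched 1 row each. The question was whether *Hmcn1* and the core components of the basement membrane differed between *Ets1* eKO and control endothelium. There were 2 control libraries, from Tie2Cre;*Ets1* fl/+ embryos, and 2 *Ets1* eKO libraries, from Tie2Cre;*Ets1* fl/fl embryos, and each library pooled 3 ventricles. All embryos carried Tie2Cre, which recombines in endothelium and endocardium, in cells that descend from them and in many blood cells. The controls therefore also carried 1 floxed allele that Cre can delete. The embryos were not sexed, and the part of sex in the results was not tested.

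The basement membrane is a thin sheet of matrix under endothelium and around muscle cells. Laminin trimers of an alpha, a beta and a gamma chain and a network of collagen IV form its 2 polymers, and nidogen and the heparan sulfate proteoglycan perlecan link them. Collagen XVIII is a further component that carries heparan sulfate and releases endostatin, and hemicentin-1, encoded by *Hmcn1*, is a very large extracellular matrix protein of the fibulin family. In the embryonic heart these proteins lie beneath the coronary vessels and between the endocardium and the myocardium.

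The libraries held 7949 to 14951 cell barcodes and 76931208 to 124140739 UMIs (unique molecular identifiers, each marking 1 captured RNA molecule), and a UMI here is also the unit of every level: counts per 1000000 UMIs of a class in a library (CPM). *Ets1* eKO replicate 2 was the shallowest, with a median of 5632 UMIs per barcode against 8222 to 8630 in the others. Pairs of libraries shared 19 to 47 barcodes, at most 0.44% of a library. Cells were assigned to classes by gates on marker genes, none of which is a member, and 1912 of 41669 kept barcodes (4.59%) that passed 2 gates were left out. This gave 1314 coronary vascular endothelial (cvEC-like), 4208 mural endocardial (mEndo-like) and 465 valve endocardial (vEndo-like) cells, while 1483 further endothelial cells (19.9%) fitted no subclass. The share without a subclass was 15.5% and 17.9% in control and 18.5% and 24.1% in eKO libraries, without overlap. Its part in the results was not tested. The gates fixed which class was high in its own markers, so these levels are a description and no check of the class names: the 6 cvEC markers summed to 6587 to 10031 CPM in cvEC-like cells, to 295 to 330 CPM in vEndo-like cells and to at most 118 CPM in mEndo-like cells, and the 6 vEndo markers summed to 1922 to 2324 CPM in vEndo-like cells and to at most 229 CPM in mEndo-like cells. The 5 mEndo markers, however, still summed to 1552 to 1652 CPM in vEndo-like cells, whose median mEndo score (0.947) exceeded their vEndo score (0.844). Of the 3 endothelial gates the vEndo-like one was the least certain, since 28.6% of its cells lay near a cut and 40.9% of them fell in the matching cluster of an unsupervised analysis, while these overlaps were 94.7% in cvEC-like and 94.0% in mEndo-like cells. The mitochondrial share was lower in both eKO libraries than in both controls in each endothelial class, with medians of 3.80% and 3.99% against 2.94% and 2.93% in mEndo-like cells, and its part in the results was not tested.

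*Ets1*, the deleted transcription factor, was checked first. In cvEC-like cells its control levels were 370 and 328 CPM and its eKO levels 181 and 129 CPM. Levels of 282 and 265 CPM in mEndo-like controls stood against 121 and 97.1 CPM in eKO. In vEndo-like cells the controls had 256 and 265 CPM and the eKO libraries 97.0 and 100.1 CPM. *Ets1* fell in all 3 classes, with log2 fold changes of −1.09, −1.27 and −1.37 (edgeR quasi-likelihood test, Benjamini-Hochberg adjusted p = 0.0112, 0.000542 and 0.00118). The position of the floxed exons relative to the counted 3′ tags was not examined, so whether the residual *Ets1* counts come from functional transcript is unknown. The *Ets1* call was lost in cvEC-like cells without cycling cells (−0.90, adjusted p = 0.15) and in vEndo-like cells under a stricter gate (−1.02, adjusted p = 0.169), from 520 of 1314 and 124 of 465 cells.

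ETS factors bind a GGAA core, so the bases before the start sites are shown for *Hmcn1* and *Hspg2*, the tested members with the lowest unadjusted p in mEndo-like cells, and for *Col18a1*, a member whose UMIs came mostly from endothelial cells. The sequences are RefSeq promoter windows on GRCm38.p6, each running to the base before the annotated gene, written 5′ to 3′ on the gene's strand, with GGAA or its reverse complement TTCC in capitals.
Hmcn1 (chr1:150993436-150993685, minus strand): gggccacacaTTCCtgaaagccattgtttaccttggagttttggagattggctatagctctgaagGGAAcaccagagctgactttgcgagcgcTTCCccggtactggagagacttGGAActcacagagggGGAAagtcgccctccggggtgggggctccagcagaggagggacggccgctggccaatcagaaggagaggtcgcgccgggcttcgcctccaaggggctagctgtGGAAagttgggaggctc
Hspg2 (chr4:137468553-137468768, plus strand): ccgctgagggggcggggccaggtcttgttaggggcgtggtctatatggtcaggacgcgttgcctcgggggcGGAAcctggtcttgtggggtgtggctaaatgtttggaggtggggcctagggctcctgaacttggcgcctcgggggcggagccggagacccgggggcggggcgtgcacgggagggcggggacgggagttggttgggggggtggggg
Col18a1 (chr10:77166549-77166780, minus strand): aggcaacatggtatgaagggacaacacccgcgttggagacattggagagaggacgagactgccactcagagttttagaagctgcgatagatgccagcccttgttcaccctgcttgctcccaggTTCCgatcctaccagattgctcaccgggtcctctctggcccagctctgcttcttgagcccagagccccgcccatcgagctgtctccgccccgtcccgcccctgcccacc

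The *Hmcn1* stretch held 6 matches in 250 bases, the *Hspg2* stretch 1 in 216 bases and the *Col18a1* stretch 1 in 232 bases. RefSeq windows were found for 8 of the 10 members, and *Lama4* and *Lamc1* had none. Over the full 250 bases before the start, *Hspg2* held 2 matches, *Col4a1* 1, *Col4a2* 2, *Lama5* 4, *Lamb1* 4 and *Nid1* 7, while the other annotated start of *Col18a1* held 8. Of all 32851 windows of that length, 93.4% held at least 1 match (median 3) and 8.69% held at least 6. The longer motif CGGAAG (either strand), which contains GGAA, occurred only in the *Lama5* window among members and in 13.6% of all windows, and AGGAAG occurred in the *Nid1* window and 1 *Col18a1* window and in 29.5% of all windows. A match is a string of letters and does not mark a bound site. *Col4a1* and *Col4a2*, the 2 chains of the common collagen IV trimer, lie head to head on chromosome 8, and their annotated genes overlap by 22 bases (11312805 to 11312826). *Hmcn1* spans 430.9 kb (chromosome 1, 150562524 to 150993435), longer than 99% of annotated genes, against 49.5 to 144.7 kb for the other members.

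Levels by cell class come first, as mean CPM over the 4 libraries. The endothelial classes were the main site of collagen IV: *Col4a1* stood at 1573 ± 171 CPM in cvEC-like (SD, n = 4), 1166 ± 87.1 in mEndo-like cells and 583 ± 68.5 in vEndo-like cells, but only 295 ± 60.9 in fibroblast-like cells and 105 ± 5.67 in cardiomyocyte-like cells. Mural-like cells (smooth muscle and pericyte markers, 30 to 105 cells per library) were also high at 1189 ± 375 CPM, a range that overlaps the cvEC-like and mEndo-like values. That class was mixed, with 51.2% of its cells near the cut and fibroblast markers at 3983 to 6132 CPM beside mural markers at 4363 to 6164 CPM. *Col4a2* followed the same order among endothelial classes, at 852 ± 127, 565 ± 49.5 and 225 ± 15.9 CPM.

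*Hmcn1* had a different distribution. It was highest in mEndo-like cells (1073 ± 382 CPM), where even the lowest library, at 592 CPM, lay above every library of the other classes. Cardiomyocyte-like (247 ± 36.2), cvEC-like (238 ± 78.2) and fibroblast-like cells (198 ± 43.5) came next, with ranges over the 4 libraries that overlapped. The order of cardiomyocyte-like and cvEC-like cells turned with the group: their control means were 268 and 300 CPM, their eKO means 226 and 176 CPM, and their ranges overlapped within each group. In the controls alone, cvEC-like cells (275 and 325 CPM) lay above fibroblast-like cells (168 and 246 CPM). VEndo-like cells had 103 ± 42.0 CPM, epicardial-like cells 84.2 ± 18.5 CPM and immune-like cells 6.00 ± 3.94 CPM. The vEndo-like and epicardial-like ranges overlapped (46.5 to 143 and 58.9 to 103 CPM).

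Among the laminin chains, *Lama4*, the alpha chain of endothelial laminins, was highest in mEndo-like (341 ± 29.3 CPM) and cvEC-like cells (320 ± 44.5 CPM), whose ranges overlapped, and lower in vEndo-like (149 ± 26.1), cardiomyocyte-like (134 ± 22.0) and fibroblast-like cells (131 ± 6.88). *Lama5*, the alpha chain of another endothelial and epithelial laminin, was nearly absent from cvEC-like cells, with 6 UMIs in control replicate 1 and 0 in the other libraries, where 0 UMIs allow at most 0.758 to 1.04 CPM (3 counts, counting error only). Its mean was 2.99 ± 1.39 CPM in mEndo-like cells and 20.4 ± 5.50 CPM in vEndo-like cells. *Lama5* was highest in epicardial-like cells at 55.1 ± 6.15 CPM. The shared chains were spread widely: among the 3 endothelial classes *Lamb1* ranged from 68.2 CPM in vEndo-like to 166 CPM in cvEC-like cells, and it was at 117 to 152 CPM in fibroblast-like, epicardial-like, mural-like and cardiomyocyte-like cells, while *Lamc1* ranged from 72.8 CPM in vEndo-like to 159 CPM in cvEC-like cells. Both were lower in immune-like (4.42 and 13.5 CPM) and erythroid-like cells (6.94 and 4.78 CPM).

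*Hspg2* (perlecan) was at 407 ± 31.9 CPM in cvEC-like cells, with 258 ± 43.4 in vEndo-like and 249 ± 54.5 in mEndo-like cells, which overlapped, and means of 72.9 to 82.0 CPM in fibroblast-like, epicardial-like, mural-like and cardiomyocyte-like cells. *Nid1* (nidogen-1) was highest in mEndo-like cells (289 ± 29.3 CPM), followed by cvEC-like (206 ± 11.1) and by vEndo-like cells (200 ± 27.1), whose ranges overlapped, and it was low in cardiomyocyte-like cells (12.2 ± 1.67). *Col18a1* stood at 605 ± 41.6 CPM in mEndo-like cells, 597 ± 66.7 CPM in cvEC-like cells and 491 ± 60.3 CPM in vEndo-like cells, where the cvEC-like range overlapped both others, and at 14.4 ± 1.23 CPM in cardiomyocyte-like cells.

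**Figure D1:**
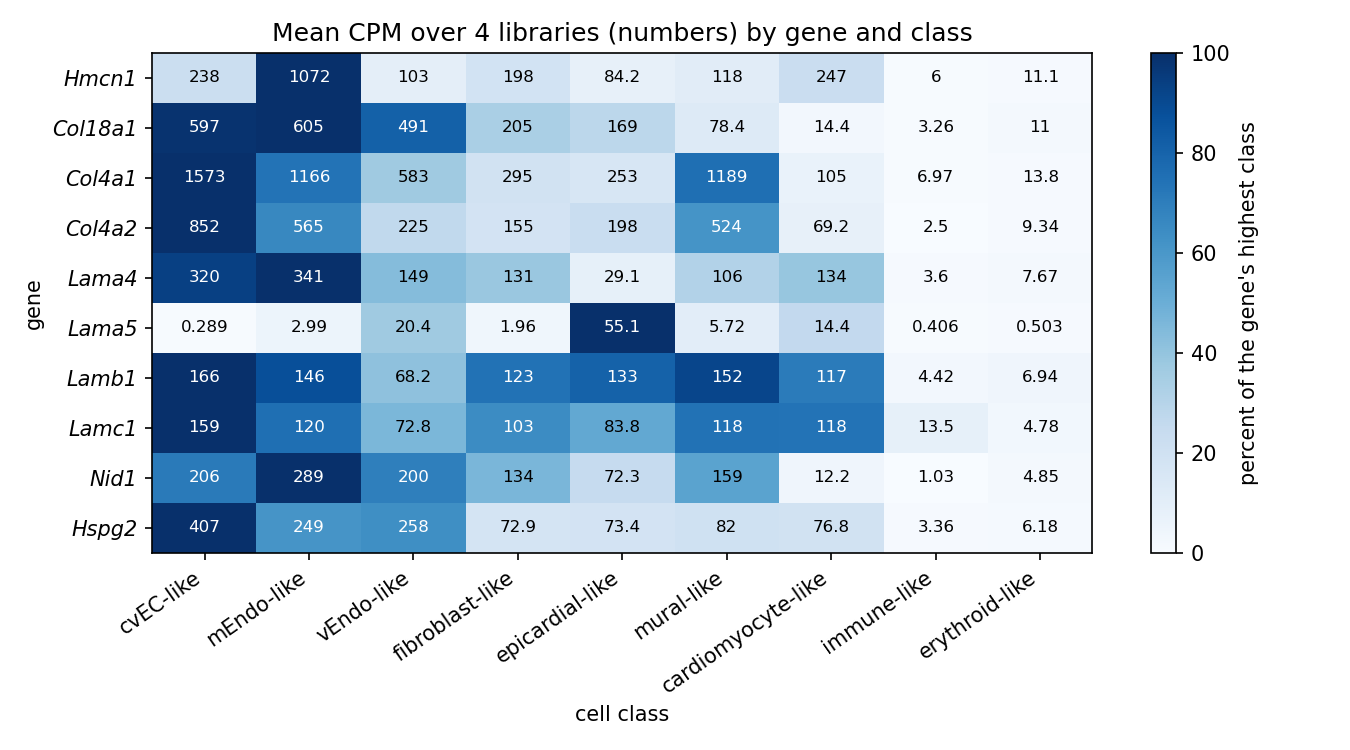
Level of each basement membrane gene (rows) in 9 cell classes (columns). Numbers are mean CPM over 4 libraries, and the shade is the percent of the gene's highest class, so shades compare classes within a row; *Hmcn1* is darkest in mEndo-like cells alone (1073 CPM), *Lama5* in epicardial-like cells (55.1 CPM) and *Col4a2* in cvEC-like cells (852 CPM).

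Cardiomyocyte-like cells were the most numerous class (20772 cells), so the share of each transcript they held was larger than their level. These shares depend on which cells were captured. Endothelial cells of all classes held 69.2% of the *Col18a1* UMIs, 61.8% of *Col4a1*, 57.7% of *Nid1*, 57.5% of *Col4a2*, 44.4% of *Hspg2* and 36.6% of *Hmcn1* (means of 4 libraries). They held 32.9% of *Lama4*, 20.0% of *Lamb1*, 18.7% of *Lamc1* and 5.60% of *Lama5*. Cardiomyocyte-like cells held 52.4% of the *Hmcn1* UMIs and 82.8% of the *Lama5* UMIs. For *Hmcn1* the endothelial share was 40.3% and 39.2% in control libraries and 33.4% and 33.5% in eKO ones, so the groups did not overlap. Endothelial cells held 14.9% and 16.7% of all UMIs in control and 15.8% and 18.3% in eKO libraries, with overlap. Of 14276 genes the endothelial share did not overlap in 38.6%, lower in eKO for 4.75% and higher for 33.8%, beside 2 and 4 of the 10 members. *Lama5* was also lower in both eKO libraries (5.54% and 6.21% against 5.50% and 5.14%). The order was the other for *Lama4* (29.4% and 32.3% against 32.8% and 37.2%), *Lamb1* (15.3% and 18% against 20.6% and 26.2%), *Lamc1* (16.3% and 16.6% against 19.1% and 22.7%) and *Nid1* (54.9% and 53.1% against 56.9% and 66.0%).

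Differences between classes were tested within libraries, as the class term in controls. Between mEndo-like and cvEC-like cells 9 of 10 members differed, 3 higher and 6 lower in mEndo-like cells, where 61.1% of all genes tested did (30.2% higher, 30.9% lower), so a call by itself sets no member apart. *Hmcn1* was higher in mEndo-like cells by 2.03 ± 0.07 log2 units (SE, adjusted p = 2.7e-25, edgeR), and *Nid1* by 0.42. With each library left out in turn, this *Hmcn1* difference ranged from 1.83 to 2.19, wider than its standard error. Those higher in cvEC-like cells were *Col4a2* (log2 difference −0.79), *Hspg2* (−0.69), *Col4a1* (−0.68), *Lamc1* (−0.62), *Lamb1* (−0.42) and *Col18a1* (−0.16). The *Col18a1* call was lost without control replicate 1 (−0.12), eKO replicate 1 (−0.16) or eKO replicate 2 (−0.15), and also with no filter on low counts, without the library block, under the stricter gate and with clusters (−0.16 to −0.12). *Lama4* did not pass (−0.08), but passed without control replicate 1 (−0.22) and turned to 0.03 without control replicate 2, and the *Lama5* call rests on 6 UMIs in cvEC-like controls. Scaling by total UMIs in place of TMM, edgeR's default scaling, moved the median of all genes by 0.18 here and turned *Col18a1* and *Lama4* to 0.01 and 0.10, while the other members kept their sign.

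Against mEndo-like cells, vEndo-like cells had less of 8 members and more of 1, where 27.3% of all genes differed (12.8% lower, 14.4% higher). *Hmcn1* showed the largest member difference (−4.31 ± 0.13, adjusted p = 3.7e-45), followed by *Col4a2* (−1.33), *Lama4* (−1.26), *Col4a1* (−1.05), *Lamb1* (−0.95), *Lamc1* (−0.63), *Nid1* (−0.61) and *Col18a1* (−0.26). With each library left out in turn, the *Hmcn1* difference ranged from −4.99 to −3.80, wider than its standard error. *Lama5* was higher (2.01, 13 and 19 UMIs in the vEndo-like controls), and *Hspg2* did not pass (−0.02, adjusted p = 0.910). The *Lama5* call was lost without control replicate 2 (1.34), and that of *Col18a1* without control replicate 2 (−0.25), eKO replicate 1 (−0.27) or eKO replicate 2 (−0.27). Under the stricter gate the calls of *Lama5* (1.87, adjusted p = 0.16), *Lamc1* (−0.57, adjusted p = 0.0901) and *Col18a1* (−0.26) were lost, with clusters those of *Lamc1* (−0.42, adjusted p = 0.114) and *Col18a1* (−0.26), and without the library block that of *Col18a1* (−0.26). Against cvEC-like cells, vEndo-like cells also had less of 8 members and more of 1 (*Lama5*), where 40% of all genes differed (19.7% lower, 20.3% higher). *Hmcn1* was lower by −2.25 ± 0.15 log2 units and *Col4a2* by −2.06 ± 0.10, and *Nid1* did not pass (−0.13, adjusted p = 0.394). The *Col18a1* call (−0.37) was lost without the library block (−0.37, adjusted p = 0.0681) and under the stricter gate (−0.28, adjusted p = 0.118).

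Fibroblast-like cells served as the matrix-producing comparison outside the endothelium. *Ets1* was at 99.2 and 86.0 CPM in fibroblast-like controls and 61.6 and 58.6 CPM in eKO, without overlap (−0.53 ± 0.13, unadjusted p = 0.00303, edgeR adjusted p = 0.221), and the part of this difference in the comparisons with that class was not tested. Against them, 9 members were higher in cvEC-like cells, where 65.8% of all genes differed and 32.5% were higher, with 2.82 for *Col4a2*, 2.76 for *Col4a1*, 2.62 for *Hspg2*, 1.78 for *Col18a1* and 1.61 for *Lama4*, while *Hmcn1* and *Nid1* were higher by 0.81 and 0.82. Total UMI scaling moved the median of all genes in this contrast by −0.25 and left the sign of these 9 members. *Lama5* did not pass (−1.51), but passed without either eKO replicate (−1.50 and −1.51) and without control replicate 1, the library that held all its cvEC-like UMIs, so that no fold is given there. It also passed with total UMI scaling (−1.75), no filter on low counts (−1.54) and clusters (−1.91), and was −0.47 without control replicate 2. In mEndo-like against fibroblast-like cells 7 members were higher (56.1% of all genes differed, 27.4% higher), led by *Hmcn1* at 2.84 ± 0.13 (adjusted p = 7.39e-11) and *Col4a1* at 2.11 ± 0.16, while *Lamb1*, *Lamc1* and *Lama5* did not pass. With each library left out in turn, *Hmcn1* ranged from 2.57 to 3.21 and *Col4a1* from 1.71 to 2.61, wider than their standard errors. Without control replicate 1 *Lamb1* (0.39) and *Lamc1* (0.32) passed, and without control replicate 2 *Lama5* did (1.48), while *Lamb1* turned to −0.06. *Lamc1* also passed under the stricter gate (0.23).

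Compared to controls, *Hmcn1* was lower in both eKO libraries in cvEC-like and mEndo-like cells but no member passed the threshold in any of the 3 endothelial classes (edgeR adjusted p at most 0.05). In cvEC-like cells 0 of 9 tested members were called against 0.64% of 11096 genes, and 1 member had an unadjusted p below 0.05, as did 12.2% of all genes. In mEndo-like cells 0 of 10 were called against 3.6% of 12958 genes, with 4 members below 0.05 unadjusted, beside 21.8% of all genes. In vEndo-like cells 0 of 10 were called against 0.35% of 9143 genes, with 2 below 0.05 unadjusted, beside 10.3% of all genes. DESeq2, the other count model, called 0, 1 and 0 members, beside 0.405%, 3.38% and 0.158% of the genes it gave an adjusted p. The median log2 fold change of the members was 0.05, −0.11 and −0.07, beside 0.01, −0.00 and 0.01 for all genes tested. In the design text the pools of a group are separate biological replicates, and with 2 per group the precision is low.

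*Hmcn1* was at 1458 and 1283 CPM in the mEndo-like cells of the controls and at 957 and 592 CPM in those of the eKO libraries. The groups did not overlap, and the 2 eKO libraries differed from each other by more than the 2 controls did. The log2 fold change was −0.77 ± 0.20 (SE, edgeR adjusted p = 0.0608), which is 58.6% of the control level. It passed the threshold under 6 of 14 alternatives, with values from −1.14 without eKO replicate 1, which passed, to −0.48 without eKO replicate 2, which did not. A fit with a library left out has 1 library in that group, which is assumed to vary like those of the other group, and without eKO replicate 1 the genes called in this class went from 467 to 872, so a pass there is weak support. In cvEC-like cells the controls had 275 and 325 CPM and the eKO libraries 205 and 146 CPM, again without overlap (−0.68 ± 0.18, adjusted p = 0.118, 62.3% of control). It passed under 2 of 15 alternatives, of which 1 left out eKO replicate 1 (−0.92), and without eKO replicate 2 it was −0.47. In mEndo-like cells 8 of 10 members had group levels that did not overlap, beside 53.2% of all genes, and in cvEC-like cells *Hmcn1* was the only 1 of 10, beside 44.6% of all genes.

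In vEndo-like cells the *Hmcn1* sums lay in the opposite order, at 46.5 and 96.8 CPM in control libraries and 143 and 125 CPM in eKO ones (0.96 ± 0.26, adjusted p = 0.172). The value passed without control replicate 2 (1.55), eKO replicate 1 (0.84) or eKO replicate 2 (1.05), but not without control replicate 1 (0.52), each from 2 libraries against 1, where 70 to 169 genes were called in place of 32. These sums came from 48, 89, 137 and 91 UMIs, and 75.7% to 82.0% of the cells had none, while single cells reached 10, 25, 31 and 21 UMIs. In this class 4 of 10 members did not overlap between groups, beside 40.7% of all genes. With clusters in place of gates the direction reversed to −2.21 (adjusted p = 0.0321). Over all endothelial cells together, an analysis added after the gates were seen, *Hmcn1* had control levels of 869 and 839 CPM and eKO levels of 627 and 403 CPM (−0.66 ± 0.19, adjusted p = 0.135, where 1.67% of genes were called), and 0 of 10 members passed, with 2 at an unadjusted p below 0.05, beside 18.6% of all genes. This sum passed without eKO replicate 1 (−0.98, adjusted p = 0.000436) and was −0.40 without eKO replicate 2, and DESeq2 was not run on it.

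**Figure D2:**
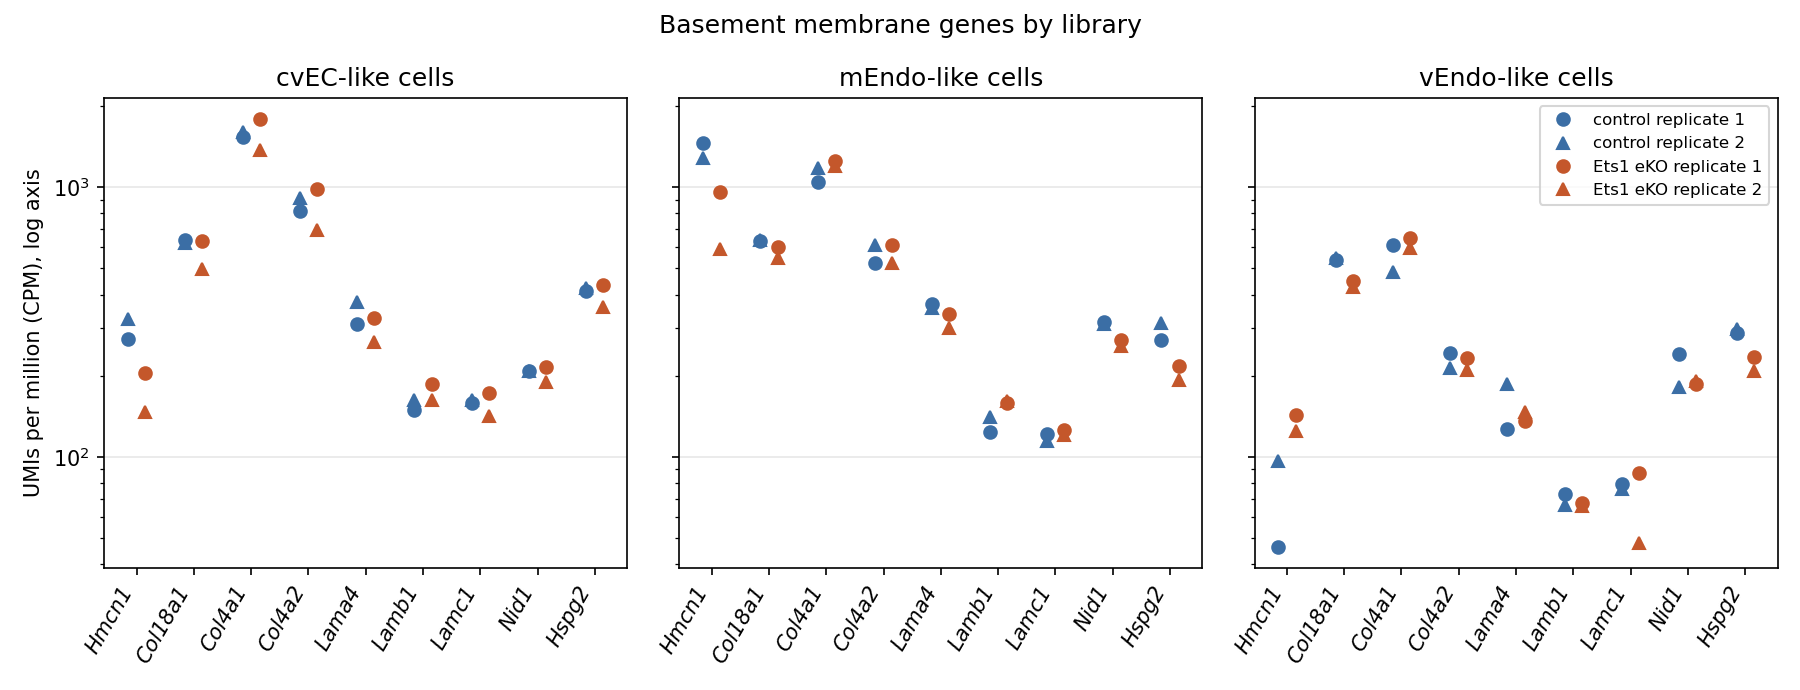
CPM (log axis) of 9 basement membrane genes in each of the 4 libraries, by endothelial class; blue marks controls, orange *Ets1* eKO, circles replicate 1 and triangles replicate 2. *Hmcn1* in mEndo-like cells lies at 1458 and 1283 CPM in controls and at 957 and 592 CPM in eKO, while *Col4a1* stays between 1044 and 1250 CPM; *Lama5* is omitted because it was at 0 UMIs in 3 cvEC-like libraries.

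Fold changes varied with gene span, and *Hmcn1* is among the longest genes. In mEndo-like cells the median log2 fold change was 0.18 over the shortest 10% of genes and −0.17 over the longest 10%, and in cvEC-like cells it was 0.16 and −0.16. With an offset for span per library, *Hmcn1* was −0.61 in mEndo-like and −0.52 in cvEC-like cells. *Malat1*, a nuclear RNA, was at 11572 and 9636 CPM in mEndo-like control cells and 14483 and 9667 CPM in eKO cells, with overlap. In vEndo-like cells it did not overlap, at 12893 and 12227 CPM against 22733 and 13955 CPM (0.58 ± 0.20, unadjusted p = 0.00909, edgeR adjusted p = 0.317), and its part in the *Hmcn1* sums of that class was not tested. The vEndo-like *Malat1* value was 0.17 without eKO replicate 1, and it passed the threshold under 2 of 14 alternatives, without eKO replicate 2 (0.89, adjusted p = 1.08e-12) and with no filter on low counts (0.57). The summed level of 8 of 12 marker lists did not overlap between groups in mEndo-like cells, 6 higher and 2 lower in eKO. The 5 mEndo markers summed to 5141 and 4971 CPM in control cells and 4187 and 3877 CPM in eKO cells, and the 8 fibroblast markers to 315 and 241 CPM against 740 and 712 CPM. Of these 8, none was at 0; *Ptn*, *Gpc6*, *Lum* and *Pde1a* were higher in both eKO libraries, and *Clmp*, *Mfap4*, *Sox9* and *Robo2* were at 8 CPM or less. The mural markers summed to 49.3 and 33.7 CPM against 72.7 and 82.3 CPM, the cvEC markers to 71.9 and 68.1 against 114 and 118, the cycling genes to 205 and 329 against 355 and 418, and the cardiomyocyte markers to 961 and 559 against 968 and 1228. The epicardial markers were higher in eKO but at most 4.81 CPM, and the vEndo markers were lower, at 207 and 229 against 204 and 180 CPM. In cvEC-like cells 7 of 12 lists did not overlap, 3 higher and 4 lower in eKO. Among them the cvEC markers summed to 7806 and 6587 CPM against 8603 and 10031 CPM, the arterial genes to 177 and 147 against 119 and 140, and the mEndo markers to 151 and 150 against 134 and 113, while the fibroblast markers overlapped (51.1 and 18.8 against 43.0 and 35.1 CPM). The vEndo-like class had 6 of 12 lists without overlap, 3 higher and 3 lower in eKO. The cardiomyocyte markers summed to 812 and 653 CPM against 897 and 1275, the immune markers to 3.88 and 5.44 against 13.6 and 10.96, and the epicardial markers to 5.81 and 5.44 against 11.5 and 8.22. The mEndo markers were lower, at 1652 and 1637 against 1564 and 1552 CPM, as were the arterial (98.9 and 139 against 91.8 and 86.3) and cycling genes (487 and 607 against 380 and 451). The part of these marker shifts in the *Hmcn1* value was not tested.

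For the collagen IV chains no difference was detected. *Col4a1* was at 1531 and 1605 CPM in cvEC-like controls and 1783 and 1372 CPM in eKO (log2 fold change 0.10 ± 0.17), and at 1044 and 1173 CPM against 1250 and 1196 CPM in mEndo-like cells (0.19 ± 0.15, and 0.11 to 0.32 with each library left out in turn). *Col4a2* was at 815 and 912 CPM against 986 and 693 CPM in cvEC-like cells (0.05 ± 0.18). In mEndo-like cells it was at 523 and 608 CPM against 608 and 522 CPM (0.05 ± 0.15). The groups overlapped in 3 of these 4 comparisons, and the sign of the small *Col4a2* values turned under total UMI scaling. The ratio of the chains was compared within libraries. There were 188 and 176 *Col4a1* UMIs per 100 *Col4a2* UMIs in cvEC-like controls and 181 and 198 in eKO, and 200 and 193 against 206 and 229 in mEndo-like cells. In vEndo-like cells the ratio was 250 and 227 against 276 and 283, and in fibroblast-like cells 199 and 181 against 183 and 200. The eKO values lay above both controls in mEndo-like and vEndo-like cells (exact permutation test over libraries, two-sided p = 0.33, the smallest that 2 against 2 allows), and the groups overlapped in cvEC-like and fibroblast-like cells. Capture of each 3′ end also enters such a ratio, so only its changes between libraries or classes can be compared.

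No laminin chain passed the threshold. *Lamb1*, the beta chain, was at 124 and 141 CPM in mEndo-like controls and 158 and 161 CPM in eKO, without overlap (0.32 ± 0.13, unadjusted p = 0.0281, adjusted p = 0.174), and at 150 and 163 CPM against 187 and 163 CPM in cvEC-like cells (0.25 ± 0.15). *Lama4* was at 369 and 356 CPM in the mEndo-like controls and 338 and 302 CPM in eKO (−0.13 ± 0.13), a value of −0.20 without eKO replicate 1 and −0.06 without eKO replicate 2. In cvEC-like cells its values were 311 and 375 CPM against 326 and 267 CPM, with overlap (−0.12 ± 0.16). *Lamc1*, the gamma chain, was at 121 and 115 CPM against 125 and 120 CPM in mEndo-like cells (0.11 ± 0.12) and 0.05 ± 0.15 in cvEC-like cells. *Lama5* had 40 and 19 UMIs in the mEndo-like controls and 18 and 13 in eKO, which is 4.89 and 2.99 against 2.47 and 1.6 CPM (−0.93 ± 0.40, adjusted p = 0.201). It was −0.52 without control replicate 1 and −1.24 without eKO replicate 1. In vEndo-like cells all *Lama4*, *Lamb1* and *Lamc1* differences were at most 0.13 log2 units in size, with standard errors of 0.20 to 0.25. These values were not stable: *Lamc1* was −0.67 without eKO replicate 1 and 0.21 without eKO replicate 2, and *Lama4* was −0.35 without control replicate 1, 0.17 without control replicate 2 and 0.48 with clusters. *Lama5* had 13 and 19 UMIs in vEndo-like controls against 24 and 17 in eKO (0.59 ± 0.36), a value of 0.28 without control replicate 1 and 0.96 without control replicate 2.

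*Hspg2*, the perlecan core protein, had the next lowest p in mEndo-like cells, with control levels of 272 and 313 CPM and eKO levels of 217 and 192 CPM. These groups did not overlap (−0.47 ± 0.13, adjusted p = 0.0809, 72.4% of control), and it passed the threshold under 2 of 14 alternatives, total UMI scaling and no filter on low counts. In cvEC-like cells *Hspg2* was at 412 and 422 CPM against 432 and 360 CPM (0.01 ± 0.15, with overlap). In vEndo-like cells it was at 289 and 299 CPM against 235 and 208 CPM (−0.37 ± 0.16, adjusted p = 0.453).

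*Nid1* was at 317 and 311 CPM in mEndo-like controls and 271 and 258 CPM in eKO, without overlap (−0.20 ± 0.12, adjusted p = 0.386), and at 208 and 209 CPM against 216 and 190 CPM in cvEC-like cells (0.05 ± 0.15). *Col18a1* was at 633 and 638 CPM in mEndo-like controls and 601 and 547 CPM in eKO (−0.09 ± 0.13), a value of −0.15 without eKO replicate 1 and −0.04 without eKO replicate 2. In cvEC-like cells it was at 636 and 622 CPM against 632 and 497 CPM (−0.07 ± 0.16). VEndo-like cells had 537 and 547 CPM against 451 and 428 CPM (−0.27 ± 0.16, adjusted p = 0.584). The low eKO value in cvEC-like cells was that of replicate 2, and without it the *Col18a1* estimate was 0.07.

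**Figure D3:**
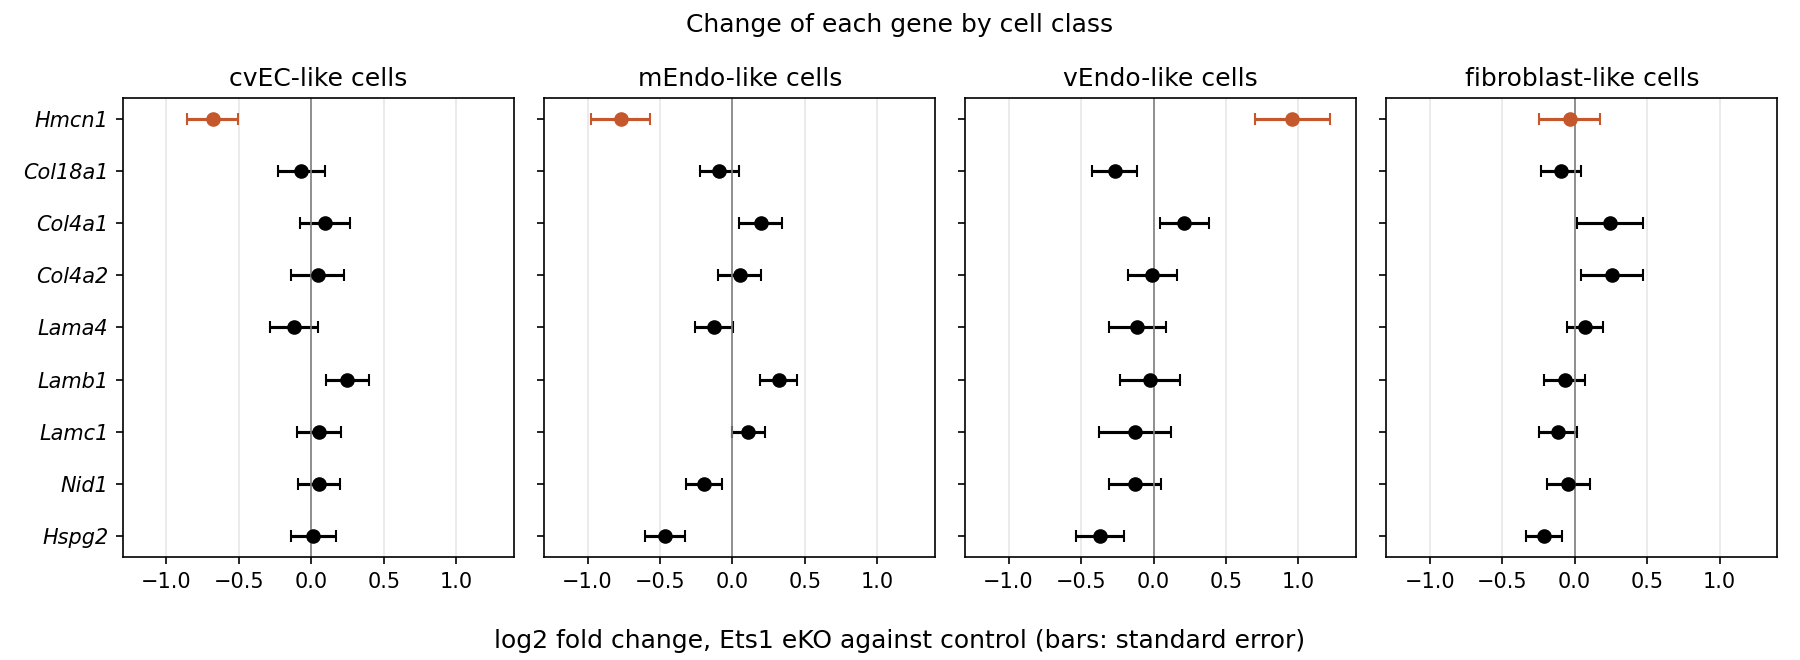
Log2 fold change of *Ets1* eKO against control (x axis) with its standard error (bars) for 9 basement membrane genes in 4 cell classes; n = 2 libraries per group. *Hmcn1* (orange) lies at −0.68 in cvEC-like and −0.77 in mEndo-like cells, at 0.96 in vEndo-like and at −0.03 in fibroblast-like cells, and the other genes lie within 0.47 of 0.

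*Hmcn1* was next set against the other 9 members in the same cells, so that any scaling shared by all genes cancels. A change that varies with gene span does not cancel, since *Hmcn1* spans 430.9 kb and the other members 49.5 to 144.7 kb. Its part in the ratio was not tested. There were 42.8 and 35.1 *Hmcn1* UMIs per 100 UMIs of the other 9 members in mEndo-like controls and 26.8 and 17.9 in eKO. In cvEC-like cells the values were 6.51 and 7.26 against 4.34 and 3.97. The groups did not overlap in either class, and the log2 ratios of eKO to control were −0.80 and −0.73, beside −0.77 and −0.68 for *Hmcn1* itself (exact permutation test over libraries, two-sided p = 0.33, the smallest that 2 against 2 allows). The 5 single references gave the same direction in cvEC-like cells, from −0.62 (*Col18a1*) to −0.76 (collagen IV). In mEndo-like cells they ran from −0.94 for collagen IV to −0.33 for *Hspg2*, and against *Hspg2* the groups overlapped, with 535 and 410 against 442 and 308 per 100 UMIs. Fibroblast-like cells showed no separation (12.6 and 21.4 against 16.9 and 14.2), nor did cardiomyocyte-like cells (37.1 and 37.9 against 39.3 and 34.4). In vEndo-like cells the ratio was higher in eKO (2.11 and 4.66 against 6.91 and 6.51), but reversed under a stricter gate and with clusters.

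**Figure D4:**
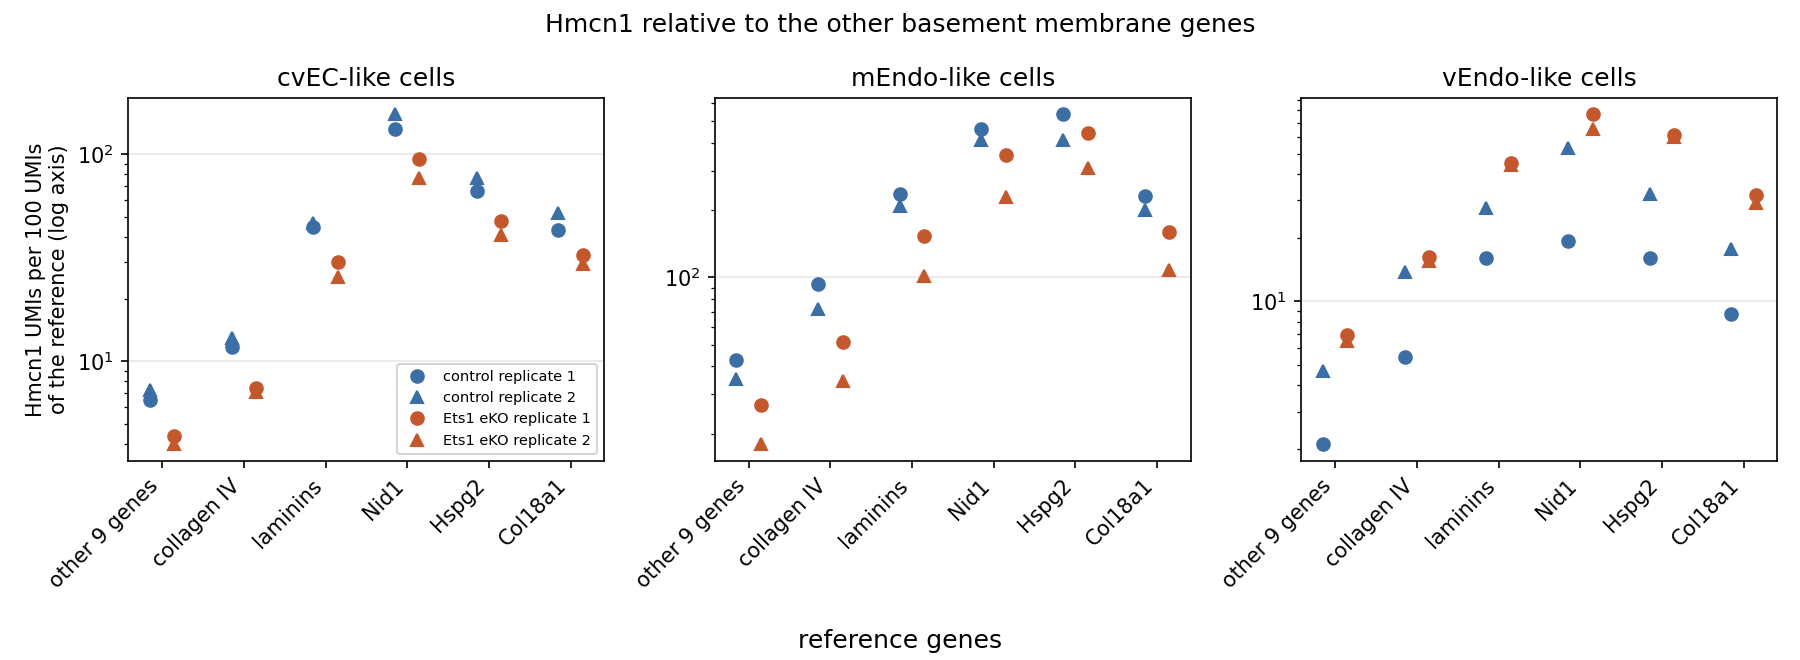
*Hmcn1* UMIs per 100 UMIs of each reference (log axis, its own range in each panel) by endothelial class and library, with colours and symbols for group and replicate. Against all 9 other genes the mEndo-like values are 42.8 and 35.1 in controls and 26.8 and 17.9 in eKO, and the vEndo-like values lie in the opposite order.

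Shares of cells with the gene were compared at equal depth. After thinning to 2000 UMIs per cell, 84.0% and 81.1% of mEndo-like control cells had at least 1 *Hmcn1* UMI against 72.1% and 55.6% in eKO, a difference of −18.7 percentage points. Of cvEC-like cells, 43.4% and 42.0% of the controls and 26.4% and 21.8% of eKO had one (−18.6 points). The exact 95% intervals, which cover counting error only, did not overlap between groups in either class (for cvEC-like cells 38.2% to 48.7% and 34.9% to 49.4% against 21.4% to 32.0% and 18.1% to 25.9%), and the exact permutation p over libraries was 0.33. The mEndo-like difference was −26.9 points without eKO replicate 1 and −10.5 without eKO replicate 2. With all UMIs kept it was −10.9 points, and in cvEC-like cells −24.3. At 1000 UMIs per cell it was −19.3 points in mEndo-like but −7.63 in cvEC-like cells, where the shares were 23.4% and 21.8% against 19.2% and 10.7% and the intervals of the control libraries overlapped that of eKO replicate 1. In vEndo-like cells the share was 8.74% and 10.6% for control libraries against 8.40% and 10.8% for eKO, with overlap, although the eKO sums were higher. Immune-like cells, which should lack *Hmcn1*, gave 0.613%, 1.14%, 2.17% and 2.72%, at median depths of 5749, 6642, 5551 and 3411 UMIs before thinning. Before thinning, the median depth of mEndo-like cells was 6831 and 7406 UMIs in control libraries and 7060 and 4374 UMIs in eKO ones, and the median number of *Hmcn1* UMIs per cell was 8 and 9 against 5 and 2.

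Of the other members, *Col4a1* was seen in 79.1% and 84.4% of mEndo-like control cells and 81.5% and 82.4% of eKO cells. *Hspg2* was seen in 39.7% and 48.4% of controls and 29.6% and 30.3% of eKO cells of that class, a difference of −14.1 points. In cvEC-like cells the *Hspg2* shares were 58.6% and 52.7% against 49.6% and 51.7% (−4.95 points), also without overlap, whereas its CPM overlapped there. At 1000 UMIs per cell the cvEC-like separation was gone, with *Hspg2* in 30.7% and 30.6% of control and 30.7% and 30.8% of eKO cells (0.0858 points). *Nid1* in mEndo-like cells was at 47.7% and 46.0% against 38.9% and 38.9%. For *Lamb1* the shares were 22.5% and 25.1% against 27.5% and 26.0%. In immune-like cells at the same 2000 UMIs the background shares of these 4 genes were 0 to 1.95%.

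**Figure D5:**
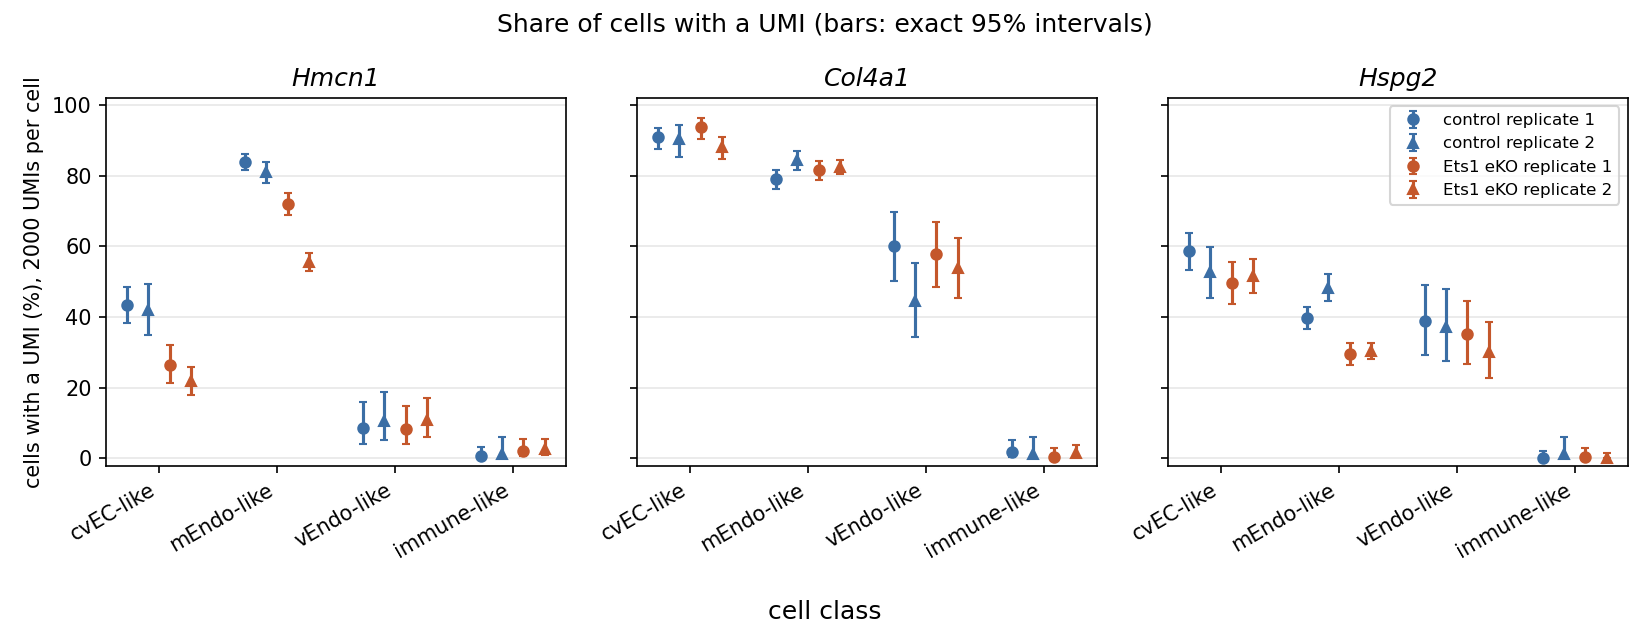
Share of cells with at least 1 UMI of *Hmcn1*, *Col4a1* or *Hspg2* (y axis, percent) after thinning to 2000 UMIs per cell, by class and library, with exact 95% intervals. *Hmcn1* lies below both controls in both eKO libraries in cvEC-like and mEndo-like cells, not in vEndo-like cells (8.40% to 10.8%), and immune-like cells give the background (0.613% to 2.72%).

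Whether the genotype difference itself differed between classes was tested as a class by condition term, with library as a block, for 5 pairs of classes. The *Hmcn1* difference was more negative in cvEC-like than in fibroblast-like cells, by −0.66 ± 0.12 log2 units (adjusted p = 0.00491), the only member called of 10 in a comparison where 1.13% of all genes were called. This call was lost without the library block (−0.64, adjusted p = 0.964). Against fibroblast-like cells, mEndo-like cells gave −0.73 ± 0.18 (adjusted p = 0.0543, 0 members called against 1.89% of genes), and this passed without either control replicate, at −0.46 without replicate 1 and −1.10 without replicate 2. Between mEndo-like and cvEC-like cells the *Hmcn1* difference was not detectably different (−0.08 ± 0.11, adjusted p = 0.833), whereas the *Hspg2* difference was more negative in mEndo-like than in cvEC-like cells (−0.44 ± 0.10, adjusted p = 0.00541), 1 of 10 members against 2.48% of genes. The *Hspg2* call was lost without eKO replicate 1 (−0.43, adjusted p = 0.106) and without eKO replicate 2 (−0.50, adjusted p = 0.393), and without the library block (−0.45, adjusted p = 0.958). The vEndo-like class stood apart for *Hmcn1* by 1.72 from mEndo-like (1 member called, 1.63% of genes) and by 1.65 from cvEC-like cells (1 member called, 0.397% of genes), but both reversed, to −1.69 and −1.70, under a stricter gate, and no direction is drawn from them. With each library left out in turn, the value against mEndo-like cells ranged from 1.21 to 2.40. The call against cvEC-like cells was also lost without eKO replicate 1 (1.78).

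Outside the endothelium no member was called: 0 of 10 in fibroblast-like (0.0473% of all genes), cardiomyocyte-like (0% of 16420 genes, 1682 of them below an unadjusted p of 0.05) and epicardial-like cells (0.0394%), and 0 of 2 tested in immune-like cells (0.112%), with 1, 0, 2 and 0 members below an unadjusted p of 0.05 in edgeR, beside 10.7%, 10.2%, 6.84% and 4.69% of all genes, and 0 called in each by DESeq2. *Hmcn1* was at 168 and 246 CPM in fibroblast-like controls and 222 and 155 CPM in eKO, with overlap (−0.03 ± 0.21). In cardiomyocyte-like cells it was at 252 and 283 CPM against 255 and 196 CPM (−0.13 ± 0.16). Epicardial-like cells had 58.9 and 84.1 CPM against 103 and 91.3 CPM, without overlap (0.53 ± 0.20, adjusted p = 0.629), and the value was 0.29 without control replicate 1 and 0.80 without control replicate 2. The groups did not overlap for 3 of 10 members in fibroblast-like cells (45.9% of all genes), 6 of 10 in cardiomyocyte-like cells (48.2%) and 7 of 10 in epicardial-like cells (38.7%).

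Within cvEC-like cells, the members varied with arterial and cycling markers, given here as descriptions over the 4 libraries. Cells with a UMI of the arterial connexin genes *Gja4* or *Gja5* (57 to 119 per library) had 163 ± 75.5 CPM of *Hmcn1* (SD, n = 4) against 275 ± 87.8 CPM in the rest, lower in 4 of 4 libraries. They had more *Col18a1*, 834 against 478 CPM, higher in 4 of 4 libraries, and less *Lama4*, 247 against 356 CPM. Collagen IV was higher in them in 4 of 4 libraries, with 1.17 times the *Col4a1* and 1.23 times the *Col4a2* of the rest. Cells with a UMI of the cycling genes *Top2a* or *Mki67* had 525 CPM of *Col18a1* against 789 CPM in the rest, lower in 4 of 4 libraries, and 254 CPM of *Hmcn1* against 189 CPM, higher in 4 of 4. These splits rest on a single UMI, and the cells that passed were deeper: medians per library were 7855 to 14567 UMIs in arterial cells against 6226 to 11412 in the rest, and 8229 to 16536 in cycling cells against 5120 to 9226. With the marker UMIs of each cell thinned to 2000 UMIs, 8.84 to 11.1% of cvEC-like cells had an arterial UMI (19 to 43 cells per library), beside 0% of immune-like cells. Their median depth was 5877 to 9650 UMIs against 6839.5 to 12992 in the rest, lower in each library, so depth was still not matched. *Hmcn1* was then at 164 against 245 CPM, *Col18a1* at 952 against 567 CPM and *Lama4* at 212 against 329 CPM, each in the same direction in 4 of 4 libraries. For the cycling genes the thinned shares were 13.5 to 22.0% in cvEC-like and 3.33 to 7.80% in erythroid-like cells. The cvEC-like cells that passed were still deeper than the rest, except in eKO replicate 1 (median 9766 against 10642 UMIs). *Col18a1* then differed less, at 521 against 615 CPM, and *Hmcn1* was at 280 against 229 CPM, again lower and higher in 4 of 4 libraries. In mEndo-like cells *Hmcn1* was at 944 CPM in cycling cells against 1136 CPM in the rest (935 against 1075 CPM thinned), higher in 1 of 4 libraries both ways.

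The wider basement membrane machinery was taken from 6 lists of 97 genes (collagens IV, XV and XVIII, laminins, nidogens with proteoglycans and linkers, receptors, synthesis and crosslinking, and turnover). In mEndo-like cells 7 of 79 tested genes were called (8.86%, beside 3.6% of all genes), 5 higher (1.71% of all genes) and 2 lower in eKO (1.89%), and 31 had an unadjusted p below 0.05, beside 21.8% of all genes. The count of 7 became 1 without control replicate 1, 5 without control replicate 2, 11 without eKO replicate 1 and 4 without eKO replicate 2. *Col15a1*, a collagen related to collagen XVIII, rose from 3.18 and 2.84 CPM in controls to 31.0 and 37.1 CPM in eKO (3.54 ± 0.22, adjusted p = 1.2e-05), and it passed under 14 of 14 alternatives. *Frem1*, a matrix protein of the Fraser complex, rose from 124 and 125 CPM to 231 and 217 CPM (0.90 ± 0.12, adjusted p = 0.00216). *Bcam*, a laminin alpha-5 receptor, rose from 32.0 and 26.9 CPM to 48.9 and 45.9 CPM (0.74 ± 0.14). Among turnover genes, *Timp1*, an inhibitor of matrix metalloproteinases, rose by 0.96 and *Sulf1*, a heparan sulfate endosulfatase, by 0.83 log2 units (adjusted p = 0.0498). The *Sulf1* call held under 6 of 14 alternatives and was also lost with DESeq2 (0.83), total UMI scaling (0.77) and clusters (0.65). The *Ext1* call held under 8 of 14 and the *Bcam* call under 9 of 14, and *Ext1* was also lost with the replicate block (−0.64) and the span offset (−0.47). *Mmp2*, a protease that cleaves collagen IV, fell from 96.3 and 87.4 CPM to 46.6 and 49.6 CPM (−0.88 ± 0.13, adjusted p = 0.0037), and *Ext1*, which polymerises heparan sulfate, fell from 469 and 536 CPM to 323 and 298 CPM (−0.64 ± 0.14, adjusted p = 0.0294). Leaving out control replicate 1 took *Frem1* (0.89), *Bcam* (0.86), *Ext1* (−0.74), *Mmp2* (−0.82), *Timp1* (0.90) and *Sulf1* (0.61) below the threshold, with adjusted p from 0.0515 to 0.336. Without control replicate 2 the calls of *Bcam* (0.66) and *Ext1* (−0.50) were lost, without eKO replicate 2 those of *Bcam* (0.76), *Ext1* (−0.60) and *Timp1* (0.81), and without eKO replicate 1 that of *Sulf1* (0.61). Of the laminins, 0 of 7 tested genes were called, with a median log2 fold change of 0.11 beside −0.00 for all genes, and the median was 0.23 over 15 turnover genes, 0.12 over 17 receptors, 0.09 over 6 collagens, 0.0014 over 15 nidogens, proteoglycans and linkers and −0.02 over 19 synthesis genes. The fibroblast marker sums given above were also higher in the eKO mEndo-like cells, and their part in these values was not tested.

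In cvEC-like cells 1 of 63 tested genes of these lists was called (1.59%, beside 0.64% of all genes in either direction and 0.433% higher): *Timp2*, another metalloproteinase inhibitor, rose from 41.3 and 31.3 CPM to 73.4 and 62.2 CPM (0.96 ± 0.17, adjusted p = 0.0211). The count of 1 became 3 without control replicate 1, 10 without eKO replicate 1 and 6 without eKO replicate 2. The *Timp2* call was lost without control replicate 2 (0.80, adjusted p = 0.0862), without cycling cells (0.83, adjusted p = 0.25) and with barcodes past 2 gates kept (0.88, adjusted p = 0.0558). Of the 63, 14 had an unadjusted p below 0.05, beside 12.2% of all genes. In vEndo-like cells 0 of 64 were called by edgeR and 0 by DESeq2, and 13 had an unadjusted p below 0.05, where 10.3% of all genes did. Without control replicate 2, eKO replicate 1 or eKO replicate 2 the count of 0 became 1, 5 and 3.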

How the data were processed

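Single-cell 3′ RNA-seq was analysed for 4 libraries. The authors deposited UMI count matrices made with Cell Ranger 7.1.0 on mm10, and the submitters' notes also name Seurat 4.3.0. The deposited counts are whole numbers without normalization. Whether intronic reads were counted is not given in the sources used here.

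The members and lists were chosen with earlier results of these data known. The study that made these libraries reported *Hmcn1* and *Col18a1* as lower in eKO coronary endothelium. The cvEC-like values of these genes come from the same cells and are no independent check of that report. Barcodes with 200 to 7000 genes and at most 20% mitochondrial, 35% ribosomal and 2% hemoglobin UMIs (the last not for erythroid-like cells) were kept. Classes were gated on mean log-normalized marker levels. No doublet caller was run, and barcodes past 2 gates were left out. For each class, UMIs of a library were added up and the sums compared by the quasi-likelihood test of edgeR 4.0.16 (R 4.3.3) after TMM scaling and filterByExpr. P-values were adjusted by Benjamini-Hochberg over all genes tested, with a threshold of 0.05. Class pairs were fitted with library as a block, a class term and its interaction with genotype. Shares were taken at 2000 UMIs per cell, with exact 95% intervals that cover counting error only. Library totals are given with the results, and in the smallest endothelial sum (729614 UMIs) 1 UMI is worth over 1 CPM.

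Named genes were every member, *Ets1*, *Malat1*, and at most 4 called genes per list and class in order of p; marker genes are named beside the results they move with. Positions are from GENCODE vM21, which holds 32158 of the 32285 gene IDs, and promoters from RefSeq on GRCm38.p6. Alternatives were DESeq2 1.42.0, total UMI scaling, no filter on low counts, a replicate block, each library left out, a stricter gate and cell filter, barcodes past 2 gates kept, Leiden clusters (igraph 0.11.9) in place of gates, no cycling or arterial cells, an offset for gene span, no library block and other depths. The sum over all endothelial cells was added after the data were seen. The fits were tested on simulated counts with 200 changed genes each. At a true log2 change of 0.5 they recovered 14 in cvEC-like, 15 in mEndo-like and 7 in vEndo-like cells, with 5, 4 and 3 false calls. At 1 they recovered 153, 144 and 96, with 16, 9 and 7 false calls. The class by condition fit of mEndo-like against fibroblast-like cells recovered 90 at a change of 1, with 19 false calls. A gene that did not pass can thus still differ by such an amount. Python 3.11.15 was used with pandas 2.3.3, numpy 2.4.6, scikit-learn 1.9.0, scipy 1.17.1 and, for plots, matplotlib 3.10.9.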

Additional observations from a re-analysis of the deposited data

Results flagged for a closer look

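The class by condition test found 4 differences between classes in the eKO effect of a member. For *Hmcn1* the effect in vEndo-like cells was set apart from that in mEndo-like cells by 1.72 log2 units (adjusted p = 7.1e-10, edgeR) and from that in cvEC-like cells by 1.65 (adjusted p = 0.000129). The *Hmcn1* effect in cvEC-like cells lay below that in fibroblast-like cells (−0.66, adjusted p = 0.00491). For *Hspg2* the effect in mEndo-like cells lay below that in cvEC-like cells (−0.44, adjusted p = 0.00541). Both vEndo-like values reversed under the stricter gate (−1.69 and −1.70) and with clusters (−1.44 and −1.61), so no direction is drawn from them. None of these 4 calls held without the library block, where the adjusted p was 0.167, 0.251, 0.964 and 0.958 in the order given.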

How the results depend on the processing

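Recomputed under the alternatives, 1138 values kept their direction and their side of the threshold or stayed within the spread, while 73 reversed, 71 moved further than that, 54 fell short of a threshold they had passed and 32 newly passed it. Where a value changed, the cause was not tested. *Hmcn1* stayed lower in eKO cvEC-like and mEndo-like cells under every alternative run. *Lama5* was counted with at most 40 UMIs a library in mEndo-like and vEndo-like cells, and in immune-like cells 2 of 10 members were tested.

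In cvEC-like cells the 0 members called became 1 with no filter on low counts (*Hmcn1*, −0.69). The 71 genes called became 47 with DESeq2, 298 with no filter, 145 with the replicate block, 43 with barcodes past 2 gates kept, 156 with clusters, 16 without cycling and 127 without arterial cells, and the 1 gene of the wider lists became 7 with no filter, 4 with the block, 0 with those barcodes, 4 with clusters, 0 without cycling and 2 without arterial cells. In mEndo-like cells the 0 members called became 1 with DESeq2, 2 with total UMI scaling, 2 with no filter, 1 with the block and 1 with clusters, beside 3.38%, 4.48%, 5.87%, 4.16% and 4.89% of all genes, and *Hmcn1*, past the threshold in these 5, was −0.76, −0.82, −0.77, −0.81 and −0.85. The 467 genes called became 1228 with no filter and 274 with barcodes past 2 gates kept, and the 7 genes of the wider lists 11 with total UMI scaling, 15 with no filter and 4 with those barcodes. Among vEndo-like cells the 0 members called became 1 with no filter (*Hmcn1*, 0.94) and 1 with clusters, where *Hmcn1* reversed to −2.21. The 32 genes called became 13 with DESeq2, 158 with no filter, 11 with the stricter gate, 21 with barcodes past 2 gates kept and 11 with clusters, and the 0 genes of the wider lists 3 with no filter, 1 with clusters and 1 without cycling cells. *Ets1* was −0.90 in cvEC-like cells without cycling cells and −1.02 in vEndo-like cells under the stricter gate, both no longer past the threshold.

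The class by condition values of *Hmcn1* without the library block were −0.64 for cvEC-like minus fibroblast-like, 1.71 for vEndo-like minus mEndo-like and 1.64 for vEndo-like minus cvEC-like cells, none past the threshold. The last 2 reversed to −1.69 and −1.70 under the stricter gate and to −1.44 and −1.61 with clusters. The mEndo-like minus fibroblast-like value passed with total UMI scaling (−0.72), no filter (−0.75), the stricter gate (−0.77) and clusters (−0.81). The vEndo-like ratio of *Hmcn1* to the other 9 members reversed to −2.25 under the stricter gate and −2.15 with clusters, and its share difference to 1.37 points at 1000 UMIs per cell. That difference was −4.70 points with all UMIs and −2.58 under the stricter gate. In cvEC-like cells the share difference was −7.63 points at 1000 UMIs and −24.3 with all UMIs, and the ratio was −0.62 relative to *Col18a1* alone. Relative to *Hspg2* alone the mEndo-like ratio was −0.33. With marker UMIs thinned to 2000 per cell, an alternative chosen after seeing the data, the log2 ratios in cvEC-like cells turned to 0.0768 for *Lamb1* and −0.0165 for *Nid1* (arterial against other cells) and to 0.00173 for *Hspg2* (cycling against other cells), where *Col4a1* and *Col4a2* came to −0.00227 and −0.0476.

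Small log2 fold changes changed sign. Total UMI scaling gave −0.0410 for *Col4a2*, −0.0348 for *Lamc1*, −0.0381 for *Nid1* and −0.0738 for *Hspg2* in cvEC-like cells and −0.000695 for *Col4a2* in mEndo-like cells. The span offset gave 0.0302 for *Col18a1* and 0.0451 for *Lama4* in cvEC-like cells, 0.0535 and 0.0447 in mEndo-like cells, and 0.121 for *Col4a2*, 0.0213 for *Lama4* and 0.0730 for *Lamb1* in vEndo-like cells. Without cycling cells *Col4a2* was −0.000484, *Nid1* −0.0339 and *Hspg2* −0.135 in cvEC-like, *Col4a2* −0.00784 in mEndo-like, and *Col4a2* 0.113 and *Lama4* 0.0284 in vEndo-like cells. Without arterial cells *Col18a1* was 0.0551 and *Hspg2* −0.00878 in cvEC-like cells. The stricter gate gave −0.0295 for *Hspg2* in cvEC-like and 0.400 for *Col4a2* and 0.142 for *Lamb1* in vEndo-like cells. Clusters gave 0.0719 for *Col4a2*, 0.476 for *Lama4* and 0.0282 for *Lamb1* in vEndo-like cells, where *Lamb1* was 0.0283 with barcodes past 2 gates kept. Level differences in controls turned under total UMI scaling to 0.0136 for *Col18a1* and 0.0960 for *Lama4* (mEndo-like minus cvEC-like), 0.0102 for *Hspg2* (vEndo-like minus mEndo-like) and 0.0240 for *Nid1* (vEndo-like minus cvEC-like), and *Hspg2* was 0.130 with clusters.

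With each library left out in turn, members called ranged from 0 to 1 in each endothelial class, genes called from 100 to 916 in cvEC-like, 155 to 872 in mEndo-like and 70 to 169 in vEndo-like cells, and genes of the wider lists from 1 to 10, 1 to 11 and 0 to 5. In order of control replicates 1 and 2 and eKO replicates 1 and 2, the genes called without each were 100, 121, 916 and 363 in cvEC-like, 155, 216, 872 and 263 in mEndo-like, and 70, 83, 149 and 169 in vEndo-like cells. *Hmcn1* ranged from −0.92 to −0.47 in cvEC-like, −1.14 to −0.48 in mEndo-like, 0.52 to 1.55 in vEndo-like, −0.32 to 0.22 in fibroblast-like and −0.305 to 0.0188 in cardiomyocyte-like cells.

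Of the other log2 fold changes whose sign turned, those in cvEC-like cells ranged from −0.227 to 0.0742 for *Col18a1*, −0.0796 to 0.254 for *Col4a1*, −0.204 to 0.261 for *Col4a2*, −0.265 to 0.0126 for *Lama4*, −0.0637 to 0.165 for *Lamc1*, −0.0201 to 0.121 for *Nid1* and −0.0973 to 0.120 for *Hspg2*. In mEndo-like cells *Col4a2* ranged from −0.0611 to 0.204. The vEndo-like ranges were −0.11 to 0.10 for *Col4a2*, −0.353 to 0.171 for *Lama4*, −0.0992 to 0.0595 for *Lamb1*, −0.674 to 0.205 for *Lamc1* and −0.324 to 0.107 for *Nid1*. The class by condition values of *Hmcn1* ranged from −0.281 to 0.116 (mEndo-like minus cvEC-like), −1.10 to −0.46 (mEndo-like minus fibroblast-like), 1.31 to 2.08 (vEndo-like minus cvEC-like) and 1.21 to 2.40 (vEndo-like minus mEndo-like). That of *Hspg2* ranged from −0.00701 to 0.196 (vEndo-like minus mEndo-like). Level differences in controls ranged from −0.223 to 0.0346 for *Lama4* (mEndo-like minus cvEC-like), −0.141 to 0.0671 for *Hspg2* (vEndo-like minus mEndo-like), −0.376 to 0.0563 for *Nid1* (vEndo-like minus cvEC-like), and −0.0661 to 1.48 for *Lama5* and −0.0612 to 0.388 for *Lamb1* (mEndo-like minus fibroblast-like). The *Hmcn1* share difference in vEndo-like cells ranged from −1.28 to 1.10 points, and the ratio there from 0.527 to 1.67.

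Whether same-numbered libraries were handled together is not given in the sources used here. Their deviations from the group means correlated at −0.0776 in cvEC-like, −0.00346 in mEndo-like and −0.0265 in vEndo-like cells. With 2 libraries per group these values cannot settle it. The replicate block raised the genes called from 71 to 145 in cvEC-like cells and gave 1 member called in mEndo-like cells. Under the stricter gate *Hmcn1* in vEndo-like cells did not pass the filter on low counts and was not tested.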
